A study of Mus musculus with 6 samples.

Results

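The neuronal splicing regulators described here are 10 genes: Nova1, Nova2, Rbfox1, Rbfox2, Rbfox3, Ptbp1, Ptbp2, Celf2, Celf4 and Mbnl2. They were chosen by name, as every probe set of the deposited table whose annotation gives exactly 1 gene symbol that is one of the 10, which yielded 35 of 45037 probe sets. A probe set is the group of short oligonucleotides that reports 1 transcript region on an Affymetrix array. Total RNA came from isolated cells of the mouse hippocampus labelled DGCs, read here as dentate granule cells, the excitatory neurons of the dentate gyrus. The series compares control mice with transgenic mice that overexpress HuD, the neuronal RNA-binding protein encoded by Elavl4. The descriptions assign the 6 arrays, 3 per group, to 2 mice a group, with 1 array from mouse 1 and 2 from mouse 2 (array 1 and array 2). Because the titles number the arrays of control mouse 2 separately (control 1, control 2), they may come from different animals. The p-values measure only the spread between these samples. In the titles 3 arrays carry the tag re-LCM, namely mouse 1 of either group and array 1 of transgenic mouse 2. All samples share a treatment labelled preservation. Strain, age, sex, the form of HuD and the promoter of the transgene are not given in the labels used here, nor is the meaning of the tag.

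These proteins decide which exons a neuron keeps in its mature mRNAs. Nova proteins bind clusters of the RNA element YCAY, and Rbfox proteins bind UGCAUG. For both families the position of the element relative to an exon sets whether the exon is included or skipped. Ptbp1 represses neuronal exons in non-neuronal and progenitor cells, and one of its targets is an exon of its relative Ptbp2, so that Ptbp2 protein appears as Ptbp1 is lost in differentiating neurons. Celf and Mbnl proteins often act in opposite directions on the same developmentally regulated exons. HuD and its relatives are themselves regulators of RNA stability and splicing, and Nova1 mRNA is among the mRNAs that Elav proteins have been reported to bind. Arrays of this kind read the 3' part of an mRNA and give its abundance, not the share of transcripts with a given exon.

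The authors' scaling left array medians between 32.3 and 36.8 intensity units. Before log2 was taken, a floor at the pooled 25th percentile of intensity (10.1) replaced anything lower, since values there have no order. All 9 listed granule cell markers, among them Dsp and Tdo2, were measured, with summed intensities of 26860 to 29973 on the control and 26214 to 27355 on the transgenic arrays. A lower transgenic mean was found for 7 of the 9 (median log2 difference -0.12), and the groups overlapped for each. Relative to the mean of the 6 arrays, their mean log2 level was 0.02 in control mouse 1 and -0.08 in transgenic mouse 1. Mouse 2 stood at 0.08 and 0.09 in the control and -0.12 and 0.0028 in the transgenic. Markers of other cells were present too. The 7 measured oligodendrocyte markers summed to 4761 to 12024 on control and 5536 to 8196 on transgenic arrays, and all 7 had a lower transgenic mean (median log2 difference -0.65). That shift lay between the mice numbered 1: relative to the mean of the 6 arrays, their mean log2 level was 0.86 in control mouse 1, the highest array, and -0.59 in transgenic mouse 1, the lowest. The arrays of mouse 2 stood at 0.11 and -0.28 in the control and 0.06 and -0.14 in the transgenic. The 7 microglia markers summed to 3209 to 4564 and 3025 to 3752, and the 9 astrocyte markers to 11659 to 17321 and 10974 to 13803, with 7 of 7 (median -0.33) and 7 of 9 (median -0.34) lower in transgenic mice. Of the 9 progenitor and immature neuron markers 8 had lower transgenic means (median -0.68) and 3 did not overlap, against 8.07% of all items. Their level was also furthest apart between the mice numbered 1, at 0.45 in the control and -0.58 in the transgenic, while mouse 2 stood at 0.06 and 0.12 in the control and 0.07 and -0.12 in the transgenic. Interneuron markers were lower for 6 of 8 (median -0.39), vascular markers for 3 of 5 (median -0.26) and pyramidal cell markers for 5 of 7 (median -0.23). The mean level of the interneuron markers was 0.50 in control mouse 1 and -0.36 in transgenic mouse 1. Mouse 2 stood at 0.16 and -0.23 in the control and 0.02 and -0.10 in the transgenic. Of the interneuron markers 2 did not overlap, 1 lower (Sst at -1.47) and 1 higher. Sst read 7.33, under the floor, on array 2 of transgenic mouse 2. The 1 vascular marker without overlap was lower, and the 1 pyramidal cell marker without overlap was higher in transgenic mice. Limma called no gene of these lists, and the part of other cells in the members' values was not tested. In RNA of pooled cells, fewer cells of a type and less RNA per cell cannot be told apart. The brightest Elavl4 probe set gave a log2 difference of -0.33 (SE 0.27) between transgenic and control mice, so the labelled overexpression was not seen there. Whether that probe set covers the RNA of the transgene is not known here, and if it does not, it checks nothing.

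None of the 10 regulators was shown to differ between HuD transgenic and control granule cells. At the brightest probe set of each gene, 6 were higher and 4 lower in the transgenic mice, and the log2 differences ran from -0.25 for Rbfox2 to 0.24 for Nova1. Their median was 0.03, against 0.0026 over all 14678 items tested (genes and unnamed probe sets above the median brightness). With limma on the means of 2 against 2 mice, 0 of the 10 passed an adjusted p of 0.05 (adjusted p = 0.999 for each), and 0% of all items did. At an unadjusted p under 0.05 limma counted 0 of the 10 and 4.31% of all items. The 3 control and 3 transgenic arrays overlapped for each of the 10, while 8.07% of all items did not overlap. In that fit the 95% intervals lay between -0.81 and 0.68 log2 units over the 10 genes, inside a 2-fold change either way. In the fit over every probe set this did not hold for Ptbp1, whose interval at the same probe set was -1.11 to 0.95. Smaller differences are not shown to be absent.

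**Figure D1:**
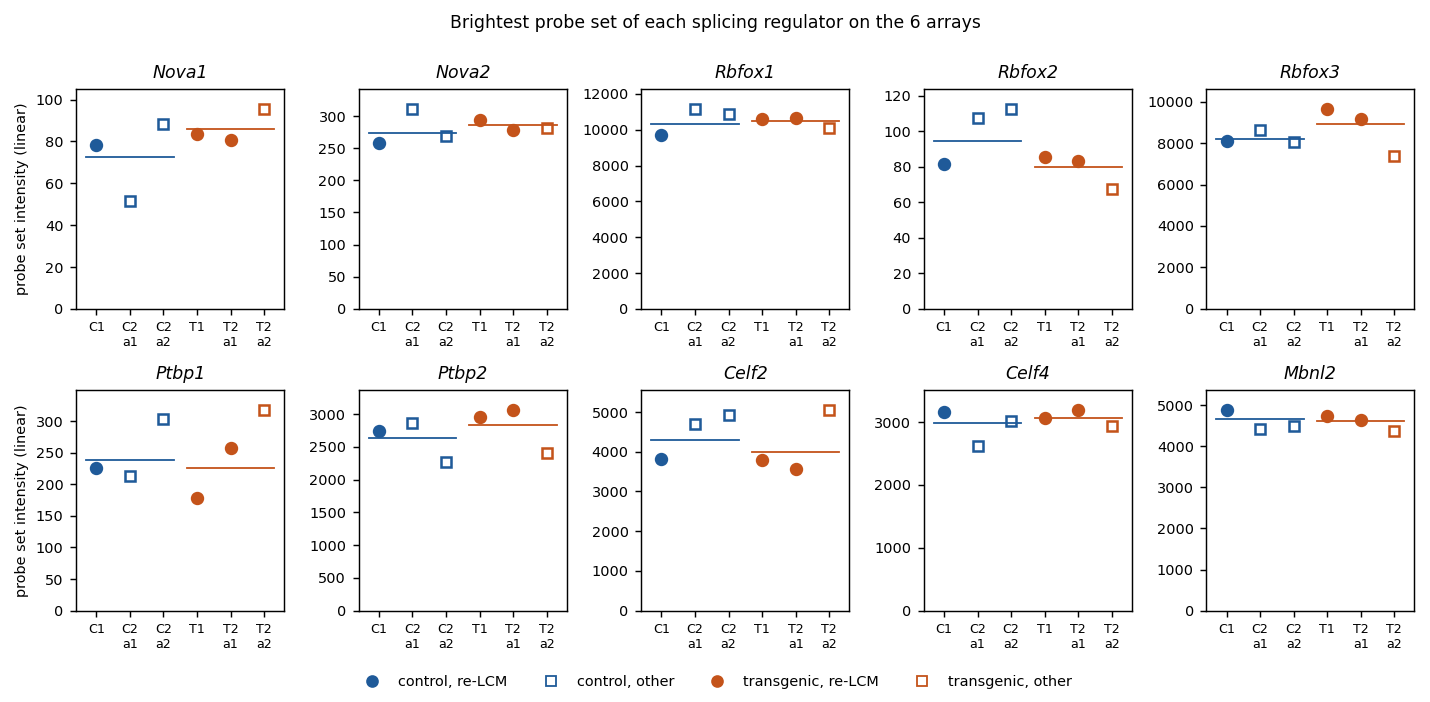
Linear intensity of the brightest probe set of each of the 10 genes on the 6 arrays, with its own axis from 0 in every panel because intensities of different probe sets are not comparable. C is control, T is transgenic, the number is the mouse and a1 and a2 are its arrays. Filled circles are arrays tagged re-LCM, open squares the others, and lines are group means of log2 values over 2 mice, turned back to the linear scale. The control and transgenic points overlap in every panel.

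Nova1 read 78.4 in control mouse 1, 51.5 and 88.4 at arrays 1 and 2 of control mouse 2, 83.6 in transgenic mouse 1, and 80.8 and 95.7 at arrays 1 and 2 of transgenic mouse 2. The lowest value, 51.5, came from control mouse 2, whose second array lay above 2 of the 3 transgenic arrays. The log2 means were 6.18 ± 0.15 for controls against 6.42 ± 0.05 for transgenics (SD, n = 2), a difference of 0.24 (SE 0.17, 95% interval -0.20 to 0.68). The 2 arrays of control mouse 2 differed from each other by 0.78, more than the groups did. Without array 1 of control mouse 2 the Nova1 difference was 0.04, without its array 2 it was 0.43, within the re-LCM arrays it was 0.07 and within the other arrays 0.50. The second Nova1 probe set, 1452245_at, was at or under the floor on every array and carries no comparison.

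Nova2, the paralog that is prominent in the forebrain, spread less over the arrays (SD of log2 intensity 0.09, against 0.31 for Nova1). Its controls read 259, 312 and 269 and its transgenics 293, 278 and 282; here and below values stand as mouse 1, then arrays 1 and 2 of mouse 2. The lowest and the highest value were both control arrays, and the difference was 0.07 (SE 0.16, interval -0.35 to 0.49). Its other probe set, 1439099_at, was under the floor on all 6 arrays, at intensities of 0.88 to 1.60.

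Rbfox1 and Rbfox3 were far above the floor on every array. Rbfox1, whose loss makes the dentate gyrus hyperexcitable in mice, read 9682, 11176 and 10852 in controls against 10575, 10652 and 10092 in transgenics. The 3 transgenic values lay inside the control range, with a difference of 0.02 (SE 0.16, interval -0.41 to 0.45). Another Rbfox1 probe set, 1455358_at, gave 0.01 (interval -0.29 to 0.32). Here and below, intervals of probe sets other than the brightest of a gene come from the fit over every probe set. In that fit the interval of the brightest Rbfox1 probe set was -0.29 to 0.34. Another pair pointed in opposite directions, 1438217_at at -0.08 and 1447735_x_at at 0.28 (interval -0.31 to 0.88). The suffix x in its name marks a probe set with probes that can match other genes, so the last is uncertain.

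Rbfox3 is the gene of the neuronal nuclear antigen NeuN. Its brightest probe set read 8081, 8613 and 8040 in controls against 9667, 9150 and 7371 in transgenics. The highest 2 values and the lowest value were all transgenic, and the difference was 0.12 (SE 0.17, interval -0.32 to 0.56). The dimmest, 1427286_at, read 243, 261 and 199 in controls against 284, 359 and 211 in transgenics, a difference of 0.25 (interval 0.03 to 0.46). It was the 1 member probe set of 35 at an unadjusted p under 0.05 in the limma fit over every probe set, where 6.49% of all probe sets were so, and its adjusted p was 0.724. The groups overlapped there, since transgenic mouse 2 array 2 lay below 2 control arrays. The 3 Rbfox3 probe sets varied together over the 6 arrays, with Pearson's r of 0.56 to 0.79 between pairs. Such r describe 6 arrays, assigned to 4 mice and scaled alike, and carry no test.

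Rbfox2 is also expressed in many tissues outside the brain, and its probe sets disagreed. Its brightest read 81.6, 107 and 113 in controls against 85.4, 83.4 and 67.2 in transgenics. The highest 2 values were the arrays of control mouse 2, and control mouse 1 lay within the transgenic range. The difference was -0.25 (SE 0.21, interval -0.81 to 0.32), and it was -0.03 without control mouse 2 and -0.46 without control mouse 1. Within the re-LCM arrays it was 0.05, and within the others -0.71. The next, 1418245_a_at, read 17.8, 30.9 and 64.8 against 52.1, 27.6 and 57.3, a difference of 0.69 with an interval of -1.33 to 2.71, and the mean of both probe sets gave 0.22, the opposite direction. The other Rbfox2 probe sets, 1418247_s_at and 1418246_at, did not pass the brightness filter.

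Ptbp1, the repressor of neuronal exons, passed the brightness filter at 1 of its 3 probe sets. There, 1458284_at read 225, 214 and 303 in controls against 178, 257 and 317 in transgenics. The highest 2 values were the second arrays of mouse 2 of either group, and the lowest was transgenic mouse 1. The difference was -0.08 (SE 0.27, interval -0.80 to 0.63), the widest interval of the 10, and -1.11 to 0.95 in the fit over every probe set. It turned to 0.26 without transgenic mouse 1 and was -0.42 without transgenic mouse 2. Of the other probe sets, 1424874_a_at was above the floor on 2 of 6 arrays and 1450443_at on 5 of 6, with intensities from 2.72 on control mouse 1 to 56.3 on control mouse 2 array 2, and neither passed the filter. Both pointed the opposite way to the brightest, with wide intervals. The differences were 0.03 (interval -1.57 to 1.63) at 1424874_a_at and 0.90 (interval -1.70 to 3.49) at 1450443_at. Non-neuronal and progenitor cells express Ptbp1. Oligodendrocyte, astrocyte, microglia and progenitor markers had their highest mean levels in control mouse 1 (0.86, 0.42, 0.30 and 0.45 above their means). Ptbp1 there was the fourth highest of the 6 arrays. The same lists had their lowest mean levels in transgenic mouse 1 (-0.59, -0.17, -0.30 and -0.58), where Ptbp1 was also lowest. The part of these cells in the Ptbp1 values was not tested.

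Ptbp2, the neuronal paralog, had 2 probe sets, both above the floor on every array. The brighter read 2737, 2861 and 2265 in controls against 2953, 3057 and 2412 in transgenics. Here the second arrays of mouse 2 were the lowest of either group, and the difference was 0.10 (SE 0.16, interval -0.32 to 0.52). Without the second arrays, left out after the values were seen, the log2 difference was 0.10, as with them. The dimmer, 1423470_at, read 666, 502 and 608 against 688, 552 and 547, a difference of 0.02 (interval -0.61 to 0.65). The 2 probe sets did not vary together (r = 0.02 over 6 arrays).

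Celf2 had 7 probe sets, more than any other of the 10, and 5 passed the filter. The brightest, 1423895_a_at, read 3824, 4689 and 4939 in controls against 3789, 3556 and 5045 in transgenics, a difference of -0.10 (SE 0.19, interval -0.60 to 0.41). Its values split by the tag and not by the group: the 3 re-LCM arrays read 3556 to 3824 and the 3 others 4689 to 5045. With the tag as a term beside the group the re-LCM coefficient was -0.40 (SE 0.16), which limma did not call (adjusted p = 0.937), and the group difference was 0.0045. In controls only mouse 1 was tagged, so tag and mouse cannot be told apart there. In transgenic mouse 2 only array 1 was tagged, so tag and array number cannot be told apart either. The other 4 passing probe sets did not split by the tag. Of these, 1450069_a_at gave the largest difference of a Celf2 probe set that passed, -0.25 (interval -0.59 to 0.09), from 2817, 2890 and 2360 in control and 2418, 2439 and 1877 in transgenic arrays. Pairs of the 5 probe sets had r of -0.60 to 0.71 over the arrays, with 5 of 10 pairs above 0.

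**Figure D2:**
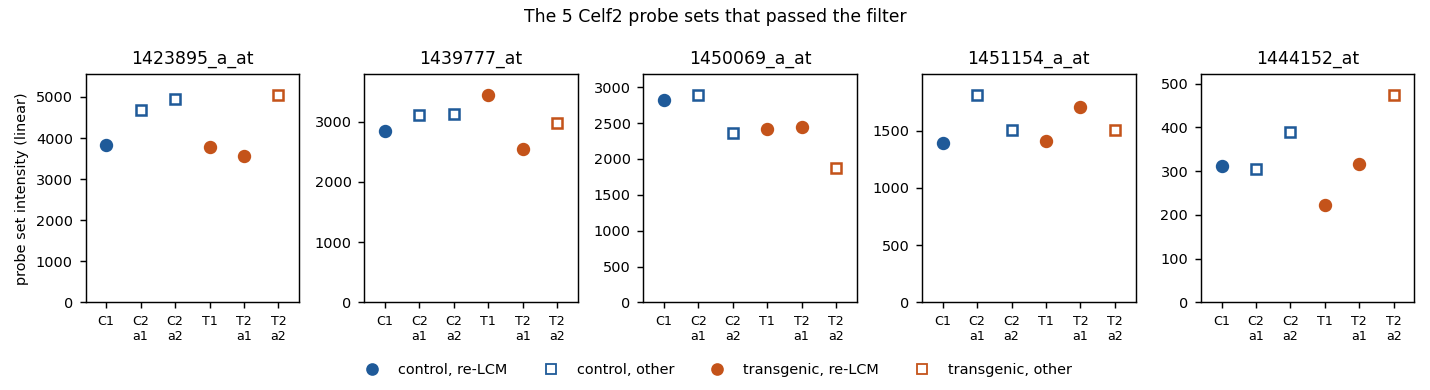
Linear intensity of the 5 Celf2 probe sets that passed the brightness filter on the 6 arrays, each panel with its own axis from 0; C is control, T is transgenic, and a1 and a2 are the arrays of mouse 2. Filled circles are re-LCM arrays and open squares the others: in the first panel the circles lie at 3556 to 3824 and the squares at 4689 to 5045, and in the other 4 panels they overlap.

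Celf4 is a neuronal Celf protein whose loss causes seizures in mice. Its brightest read 3170, 2628 and 3024 in controls against 3063, 3189 and 2945 in transgenics. Control mouse 2 array 1 was the lowest, and the remaining 5 arrays lay within 2945 to 3189. The differences of its 3 probe sets were 0.04, -0.01 and 0.02, and the narrowest interval was -0.24 to 0.21, at 1426930_at. Pairs of them had r of 0.54 to 0.91.

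Mbnl2, the muscleblind protein that governs many adult brain exons and is sequestered in myotonic dystrophy, had the smallest SD of the 10 over the arrays. Its brightest probe set read 4875, 4415 and 4497 in controls against 4749, 4628 and 4366 in transgenics. The highest value was 1.12 times the lowest, and the difference was -0.01 (SE 0.16, interval -0.43 to 0.40). Its second probe set, 1455827_at, gave -0.15 (interval -0.53 to 0.23) from 937, 755 and 842 against 764, 750 and 844. The 3 dim ones ranged from -0.46 to 0.08 with wider intervals, up to -2.25 to 2.38 at 1457477_at.

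Over all probe sets of the 10 genes, 27 of 35 passed the brightness filter, 28 were above the floor on all 6 arrays, and 2 were at or under it on all 6. Of the 27 that passed, 16 were higher and 11 lower in the transgenic mice. With limma over every probe set 0 of the 35 passed the adjusted p threshold (0% of all probe sets, smallest adjusted p = 0.538), and the groups overlapped for all 35, against 7.03% of all probe sets that did not overlap. That fit estimated its prior spread from dim probe sets too, so its intervals differ from those of the fit over 14678 items for the same probe set.

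**Figure D3:**
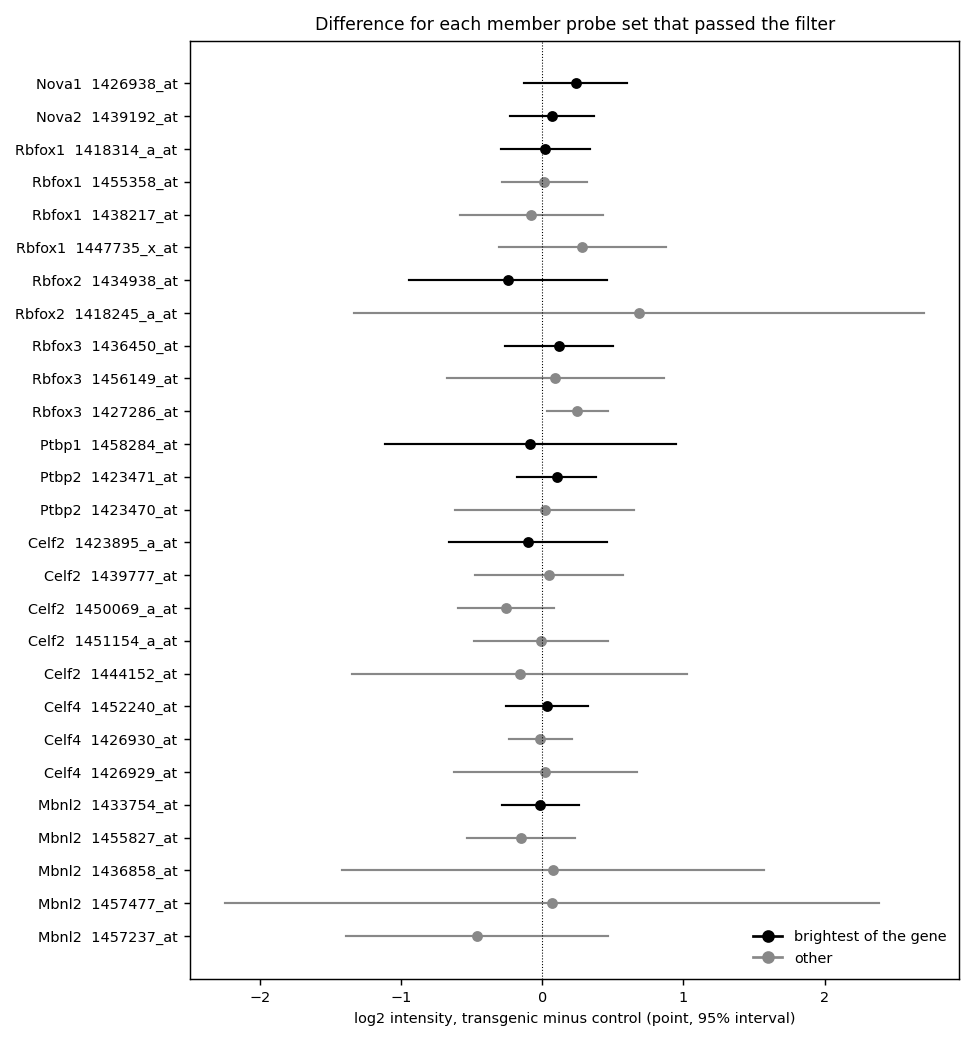
Log2 difference, transgenic minus control, for the 27 member probe sets that passed the filter, with the 95% interval of the limma fit over every probe set on 2 against 2 mice. Black points are the brightest probe set of a gene and grey points the others. All intervals but that of Rbfox3 1427286_at (0.03 to 0.46, adjusted p = 0.724) cross 0, and the widest are those of Mbnl2 1457477_at (-2.25 to 2.38) and Rbfox2 1418245_a_at (-1.33 to 2.71).

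For each of the 10 genes the 2 arrays of mouse 2, in at least 1 group, were further apart than transgenic and control means, as were those of 84.7% of all items. The larger of 2 differences between single arrays is set here against a difference of means, which is often the smaller for that reason alone. For 5 of the 10, both second arrays lay on 1 side of the remaining 4: above them for Nova1, Ptbp1 and Celf2, and below them for Rbfox3 and Ptbp2. The same held for 20.9% of all items, a comparison chosen after the values were seen. For Ptbp2 the step from array 1 to array 2 was -0.34 in both control mouse 2 and transgenic mouse 2, and for Ptbp1 it was 0.50 and 0.30. What the second arrays share was not tested. With both second arrays left out, limma still called 0 of the 10, and the Nova1 difference was 0.37. By the tag, also compared after the values were seen, 3 of the 10 (Celf2 lower, Celf4 and Mbnl2 higher on re-LCM arrays) and 6 of the 35 probe sets did not overlap, against 11.7% of items and 8.59% of probe sets. None of the 10 was called for the tag by limma (0% of items, smallest adjusted p = 0.937).

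The SD of log2 intensity over the 6 arrays ran from 0.06 for Mbnl2 to 0.32 for Ptbp1. Of the 10, 7 were under the median of all items, 0.26, as are 50% of all items by definition. Ptbp1, Nova1 and Rbfox2 were above it, and their probe sets had the lowest median intensities of the 10 (241, 82.2 and 84.4). The genes whose log2 values followed these 3 most closely were Auts2, Zfyve21 and Psme4 for Ptbp1 (Pearson's r of 0.991, 0.986 and 0.985), Fbxo38, Dleu2 and Nalcn for Nova1 (0.994, 0.991 and 0.990), and Fut10, Rsph14 and Nt5dc1 for Rbfox2 (0.987, 0.984 and 0.971). With only 6 arrays such values are common: 87, 170 and 59 of the 11137 genes compared had r above 0.9 with Ptbp1, Nova1 and Rbfox2. They describe these arrays and carry no test.

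Other splicing genes were compared in the same fit, and limma called none. Of 23 further tissue-specific splicing regulators 19 were measured, 9 higher and 10 lower, with a median of -0.01. Elavl2, a close relative of HuD, had the largest difference there, -0.83 (SE 0.31), from 500, 351 and 230 in control and 200, 270 and 188 in transgenic arrays. It was the 1 gene of the 19 at an unadjusted p under 0.05 (limma adjusted p = 0.999), against 4.31% of all items. Its difference was -0.42 without control mouse 1, the highest array. Rbm24, a regulator of muscle exons, was at -0.45 (SE 0.19), Celf6 at -0.38 (SE 0.29) and Tial1, an RNA-binding protein of stress granules, at 0.21 (SE 0.17). Tial1 was the 1 gene of the 19 whose groups did not overlap, at 655 at most in control and 677 at least in transgenic arrays. Of all items 8.07% did not overlap, and with the mean of its probe sets Tial1 was at -0.11.

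Of 31 hnRNP and related proteins, which coat nascent transcripts and often repress exons, 29 were measured, 23 higher and 6 lower, with a median of 0.06. Their mean log2 level, relative to the 6 arrays, was -0.11 in control mouse 1 and 0.09 in transgenic mouse 1, but 0.03 and 0.02 in control mouse 2 and -0.0085 and -0.0076 in transgenic mouse 2, so mouse 2 did not show the higher transgenic level. None passed the threshold (0 at an unadjusted p under 0.05, against 4.31% of all items). Hnrnpc at -0.20 (SE 0.15), named after its values were seen, was the 1 of the 29 that did not overlap, against 8.07% of all items. Hnrnpa2b1 read 3419, 3784 and 4039 in control and 4254, 3988 and 4694 in transgenic arrays (0.23, SE 0.16), and the RNA-binding protein Syncrip gave 0.23 (SE 0.15). Taf15 was at 0.38 (SE 0.21). Hnrnpl, at 1.08 (SE 0.82), rested on an intensity of 6.93 under the floor on control mouse 1, and without that mouse it was at -0.15.

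SR proteins, which promote exon inclusion, and their kinases had 14 of 24 measured genes higher and 10 lower (median 0.06, 0 without overlap). Clk3, a kinase of SR proteins, was at 0.51 (SE 0.27), the splicing coactivator Srrm1 at 0.43 (SE 0.25), Clk1 at 0.24 (SE 0.16) and Srsf11 at 0.20 (SE 0.16). With the mean of probe sets Srrm1 was at 0.0092 and Srsf11 at 0.043, while Clk3 and Clk1 stayed at 0.51 and 0.24. The core spliceosome had 15 of 32 higher and 17 lower (median -0.01, 0 without overlap). Its largest difference, that of Snrpn at -1.59 (SE 0.81), came from 1 array: transgenic mouse 1 read 6.10, under the floor, and the others 48.2 to 80.4, and without that mouse the difference was -0.38. Prpf3 was at 0.43 (SE 0.28), Sf3b5 at 0.29 (SE 0.15) and Ddx23 at -0.25 (SE 0.15).

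**Figure D4:**
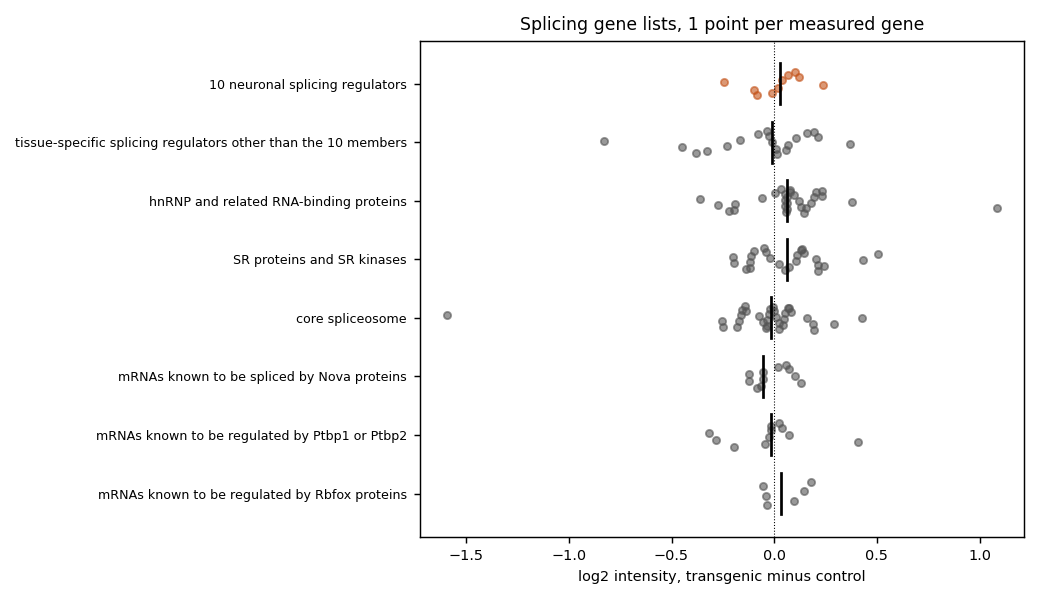
Log2 difference, transgenic minus control, of each measured gene (1 point per gene) in the 10 regulators, 4 lists of other splicing genes and 3 lists of their known target mRNAs; vertical bars are medians and vertical scatter within a row has no meaning. The medians lie between -0.05 and 0.06, and the outlying points are Snrpn (-1.59) in the core spliceosome, Hnrnpl (1.08) among hnRNPs and Elavl2 (-0.83) among the tissue-specific regulators.

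The mRNAs that these proteins are known to act on were compared for total abundance. Of 13 Nova targets 11 were measured, 5 higher and 6 lower (median -0.05), among them Epb41l1, a cytoskeletal adaptor, at 0.13 (SE 0.17) and the receptor phosphatase Ptprf at -0.12 (SE 0.16). Ptprf was the 1 target of the 3 lists whose groups did not overlap, with 256 at least in control and 253 at most in transgenic arrays. Of all items 8.07% did not overlap, and with the mean of its probe sets Ptprf was at 0.079. Of 13 mRNAs regulated by Ptbp1 or Ptbp2, 11 were measured, 4 higher and 7 lower (median -0.02). The vesicle priming gene Unc13b had the smallest p of that list, with 90.9, 103 and 76.5 in control and 126, 129 and 98.9 in transgenic arrays (0.41, SE 0.16, limma adjusted p = 0.999), and the vesicle protein Vamp2 was at -0.32 (SE 0.21). Of 8 Rbfox targets 6 were measured, 3 higher and 3 lower (median 0.03), with Vamp1, whose mRNA Rbfox1 stabilises, at 0.14 (SE 0.15) and the fusion protein gene Snap25 at 0.18 (SE 0.24). None of the targets was called, and their exon choice was not measured.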

How the data were processed

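The authors deposited 6 arrays as linear intensities per probe set, scaled so that the 2% trimmed mean over 45101 probe sets is 150.001 on every array. The sources used here name no program, background correction or build. The 64 control probe sets were left out. Values under the 25th percentile (10.1) were set to it, log2 was taken, the arrays of a mouse were averaged, and transgenic were compared with control mice with limma 3.58.1 (lmFit, eBayes; R 4.3.3). A call needed a Benjamini-Hochberg adjusted p under 0.05. Residual degrees of freedom were 2 and prior ones 2.70. The fit ran over 14678 items: probe sets whose mean log2 exceeded the median of 4.92, taking the brightest for each of 11138 genes, plus 3540 without a single symbol. A further fit took all 45037 probe sets. Gene symbols are those of the platform annotation, in which 34945 probe sets have 1 symbol, 932 several and 9160 none.

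Members and gene lists were chosen with earlier results of these data known. Named genes are the 10 members, up to 4 genes of smallest p per list (2 for target lists) and the 3 genes most correlated with each of the 3 most variable members. Outside this rule, Elavl4 is named as the overexpressed gene, and Hnrnpc because its groups did not overlap. Alternatives changed normalization, floor (34.6, or a pseudocount of 16), filter, probe set choice, replication unit, blocks, tag, variance model, and which mice or arrays entered. Leaving out both second arrays was chosen after seeing the data. No p was given for lists.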

Additional observations from a re-analysis of the deposited data

How the results depend on the processing

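No setting with a test called any of the 10 regulators. Of 210 recomputed member differences, those within the re-LCM arrays and within the other arrays had no p. Among the rest the smallest limma adjusted p was 0.324, for Rbfox2 with the mouse as a random block. Over all items 1 was called with a variance trend and robust variance, and without the filter 1996 items of 28285 did not overlap. The median of the 10 was -0.033 within the untagged arrays. Signs turned as follows; no cause was tested. Without the re-LCM arrays: Nova2 -0.037, Rbfox1 -0.13, Rbfox3 -0.17, Ptbp1 0.32, Ptbp2 -0.078, Celf2 0.068, Rbm24 0.063 and Sf3b5 -0.10. Within re-LCM arrays: Rbfox2 0.048, Celf4 -0.020, Ddx23 0.055 and Snap25 -0.092. With the mouse as a random block: Nova2 -0.0032, Rbfox1 -0.047, Ptbp1 0.073 and Mbnl2 0.0031. The correlation fitted there between arrays of a mouse was negative, -0.54, so that setting does not describe arrays of a mouse as alike. With 6 separate arrays: Rbfox1 -0.016 and Ptbp1 2.5e-05. With the tag as a term: Ptbp1 0.12 and Celf2 0.0045. With quantile normalization: Rbfox1 -0.018. Without second arrays: Mbnl2 0.015. With means of probe sets: Rbfox2 0.22, Rbm24 0.19, Tial1 -0.11, Syncrip -0.062, Ptprf 0.079 and Snap25 -0.12. Leaving out mice or arrays gave -0.26 to 0.067 for Celf2, -0.049 to 0.12 for Celf4, -0.077 to 0.052 for Mbnl2, -0.013 to 0.15 for Nova2, -0.42 to 0.26 for Ptbp1, -0.073 to 0.11 for Rbfox1, -0.52 to 0.019 for Ddx23, -0.15 to 2.32 for Hnrnpl and -0.061 to 0.41 for Snap25.

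The mouse numbers name different animals, and deviations of same-numbered mice had r = 0.03 across items. The number also goes with handling, since only mouse 2 of either group had a second array, and neither second array was tagged re-LCM. What same-numbered mice share beyond the number was not tested. With the replicate block the members' median was 0.03 and 0 items were called. The number of mice limits precision for all 10 genes, and 2 of the 35 probe sets, at or under the floor on every array, allow no comparison.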
